A study of Mus musculus with 8 samples.

Results

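Cebpe was examined through the chromatin loops that its start site takes part in. CEBPE is a basic leucine zipper transcription factor of the C/EBP family that acts late in granulocyte development and is needed for the genes of the secondary granules of neutrophils, and CEBPA is the family member that acts before it in the same lineage. H3K27 acetylation marks active promoters and enhancers. H3K27ac HiChIP joins DNA ends that lie close together in nuclei and keeps those bound to acetylated histones, so that a loop is a pair of genomic bins with more ligation contacts than their distance and read coverage predict. A loop was counted for Cebpe when one of its 5 kb bins held the canonical start site of the gene. These promoter loops numbered 51 of the 411922 loops in the 4 lists of the series. They were 28 of 158233 loops for untreated p42 cells, 5 of 80489 for untreated p30 cells, 15 of 78591 for p42 cells given LPS and 3 of 94609 for p30 cells given LPS. Cebpe was chosen by these same numbers of promoter loops in p42 and p30, so they and the contacts and coverage of the same bin are given as a description without a test.

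The 8 libraries came from HPC-7, a mouse haematopoietic progenitor line with very low endogenous CEBPA, that carried either p42, the full-length form of CEBPA, or p30, the shorter form that lacks the N-terminal part of the protein. Cells of each line were left untreated (UT) or were exposed to lipopolysaccharide (LPS), a bacterial ligand of TLR4, at 100 ng/mL for 2 h, which gave 4 groups of 2 replicates. Per the study's methods, 2 kinds of line were made by transduction with vectors that also carry GFP. One had ERT2 fusions, which enter the nucleus after 4-hydroxytamoxifen, and was sorted on GFP, and the other had constitutive FLAG-tagged forms. Which of them was used for HiChIP is not given in the sources used here. The loops of each group were available as 1 list over both replicates, so no spread between replicates could be measured, and every difference below compares these 4 lists and not the conditions. All 8 markers of haematopoietic progenitors examined, among them Kit, Gata2 and Tal1, had promoter loops in each list, 137 of them for p42 UT, 62 for p30 UT, 83 for p42 LPS and 71 for p30 LPS. Markers of other cell types had fewer. Of 6 neutrophil markers 4 had 19 loops for p42 UT, 1 had 3 for p30 UT, 3 had 7 for p42 LPS and 2 had 10 for p30 LPS, with Ly6g and Mmp8 at 0 throughout. For 4 macrophage markers the loops ranged from 6 to 18 over the lists, for 4 B cell markers from 2 to 6, for 3 T cell markers from 0 to 3, for 3 erythroid markers from 3 to 12 and for 3 mast cell markers from 0 to 2. The B cell genes Pax5 and Ms4a1 and the T cell genes Cd3e and Cd3g were at 0 in every list. The part of other cell types in the results was not tested. The caller's fit used 14503330 to 18999991 contacts per list, and the mean coverage of a bin with a peak of H3K27ac, as implied by the caller's coverage biases, ranged from 1939 to 2911 reads.

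Cebpe (ENSMUSG00000052435.8) lies on the minus strand of chromosome 14 at chr14:54947817-54949631 in GRCm39 and has 2 exons in its canonical transcript. Its start site at position 54949631 falls in the bin chr14:54945001-54950000, which holds the whole gene, and upstream therefore means towards higher coordinates. The start site lies 369 bp from the upstream end of this bin, so sequence farther upstream falls in the next bin. The start-site bin and both bins beside it carried a peak in the peak set that all 4 lists shared. Letters of C/EBP sites were searched on both strands in these bins and in the partner bins, because p42 and p30 share the DNA-binding region that reads them. The start-site bin held 1 match to TTGCNNAA, the wider C/EBP core, at 2712 bp downstream of the start site and beyond the end of the gene. The bin 5 kb downstream held 3 matches to it within 128 bp, at 6079 to 6199 bp downstream of the start site and in an intron of the gene Gm63054. Both windows are shown as the plus strand of GRCm39 with the matches in capitals.

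Start-site bin, chr14:54946889-54946956: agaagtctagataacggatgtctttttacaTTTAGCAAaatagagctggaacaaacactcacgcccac

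Bin 5 kb downstream, chr14:54943402-54943589: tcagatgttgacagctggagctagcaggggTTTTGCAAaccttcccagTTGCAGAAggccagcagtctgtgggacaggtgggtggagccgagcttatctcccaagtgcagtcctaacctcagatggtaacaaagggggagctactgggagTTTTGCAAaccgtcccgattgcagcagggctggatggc

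At least 1 match to TTGCNNAA was present in 85.8% of all 64985 peak bins of the 4 lists, and 3 matches within 128 bp in 0.463% of them. This spacing was looked up after the cluster had been seen. The C/EBP palindrome TTGCGCAA, which the wider core includes, was found in none of these 3 bins and in none of the partner bins, and in 0.611% of all peak bins. A match describes letters in the reference sequence and was not related to binding here.

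In untreated cells Cebpe had 28 promoter loops in p42 and 5 in p30, and in LPS-treated cells 15 and 3. The contacts in them, the ligation reads that join the 2 bins, summed to 639 for p42 UT (95% exact Poisson interval 590 to 691) and 69 for p30 UT (53.7 to 87.3). After LPS they summed to 269 for p42 (238 to 303) and 30 for p30 (20.2 to 42.8). The intervals cover counting error only, and the sums run over loops called separately in each list. Contacts were also scaled to 1000000 contacts of the caller's fit, here called scaled contacts. These were 33.6 against 3.84 in untreated cells, a ratio of 8.76, and 16.99 against 2.07 after LPS, a ratio of 8.21. A loop held 22.8 contacts on average for p42 UT and 13.8 for p30 UT, and 17.9 and 10 after LPS. Single loops overlapped, with 9 to 57 contacts for p42 UT and 11 to 17 for p30 UT, and the p42 mean includes loops 15 to 25 kb from the start site that p30 does not list. The contacts the caller expected take the coverage of both bins into account. Relative to them, the summed loops stood at 4.37 for p42 UT, the lowest value, at 5.31 for p30 UT, and at 5.30 and 5.16 for p42 and p30 after LPS. These values run over different loops in each list. At each loop listed for both lines, 5 in untreated cells and 3 after LPS, the value was higher for p42.

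The number of loops at a gene can depend on how many loops the caller accepted in all, and the list of p42 UT was the longest. With every list cut to the 78591 loops of smallest q-value, Cebpe had 19 promoter loops for p42 UT and 5 for p30 UT, and 15 and 1 after LPS. The ratio in untreated cells was then 3.80 in place of 5.6. Among 10513 protein-coding genes with a promoter loop in any list, the difference of 23 loops in untreated cells was exceeded by 4 genes, where the median difference was 2, and the difference of 12 after LPS was exceeded by 1 gene, where the median was -1. In lists of equal size no gene exceeded the difference of 14 that Cebpe had under either treatment. There 3 genes, Cebpe among them, reached 14 in untreated cells, and likewise 3 after LPS. The share of all genes with at least 2 times the promoter loops in p42 under both treatments, with 1 loop added to each count, was 5.55% (583 of 10513), and Cebpe is one of them by its choice.

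**Figure D1:**
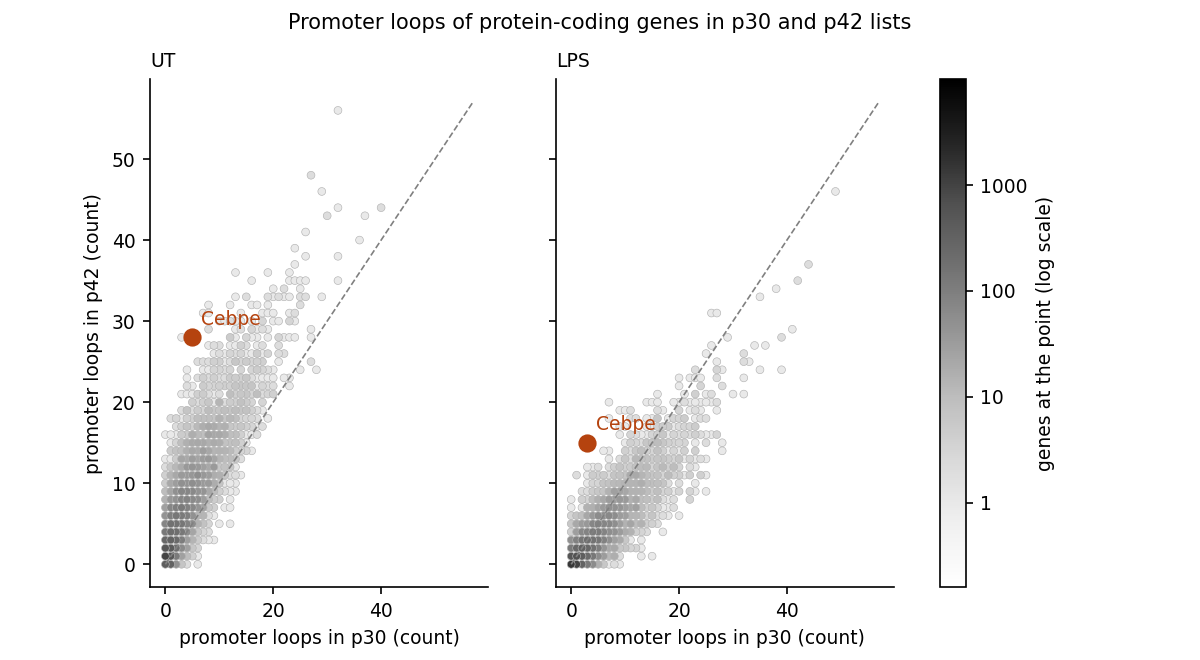
Promoter loops of each protein-coding gene with a loop in any list, counted for p30 (horizontal axis) and for p42 (vertical axis), untreated on the left and LPS on the right; grey shades give the number of genes at a point on a log scale and the dashed line marks equal counts. Cebpe, in orange, lies above the body of the genes at 5 and 28 loops in untreated cells and at 3 and 15 after LPS.

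The loops of Cebpe led to 28 partner bins, and p42 UT held all 28 of them. They lay 15 to 60 kb downstream (7 bins) and 45 to 180 kb upstream (21 bins), and 20 of the 28 carried a peak. All 15 partners of p42 after LPS were among those of p42 UT, as 53.6% of the latter, and 9 of the 15 were in no list of p30. The partners of p30 UT were all shared with p42 UT, as 17.9% of its partners, and the 3 of p30 after LPS were all shared with p42 after LPS. Both p30 lists had only 1 partner in common. No partner was found in p30 and missed in p42 UT. These are partners of the start-site bin alone, whose upstream edge lies 369 bp from the start site. All 12 p30 UT loops of the bin 5 kb upstream led to bins among these 28. Its loop to the bin 75 kb upstream of the start-site bin held 53 contacts for p30 UT and 115 for p42 UT. After LPS that loop held 38 for p30 and 69 for p42.

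The partner in all 4 lists was the bin 80 kb upstream, chr14:55025001-55030000, a peak bin in an intron of the gene Gm62887. It held 32 contacts for p42 UT and 11 for p30 UT, and 23 for p42 and 10 for p30 after LPS. Both p42 counts lay above both p30 counts. For p42 UT this was 11.95 times the expected 2.68 contacts (q = 1.4e-20), the smallest q-value of any Cebpe loop, and for p42 after LPS 10.1 times the expected 2.27 (q = 9.03e-13). The sequence of this bin held 2 matches to TTGCATCA, a composite site that a C/EBP protein can bind together with an ATF protein. They stand on opposite strands, 76206 and 80174 bp upstream of the start site, and are shown because this bin was the only constant partner.

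80 kb upstream, first match, chr14:55025807-55025874: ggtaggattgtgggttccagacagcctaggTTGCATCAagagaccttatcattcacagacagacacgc

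80 kb upstream, second match, chr14:55029775-55029842: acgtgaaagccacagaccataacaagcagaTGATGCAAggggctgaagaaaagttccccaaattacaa

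Around this bin lay the leading upstream contacts. The bin 70 kb upstream, which holds the start of Slc7a8, a transporter of neutral amino acids, had 31 contacts for p42 UT, 23 for p42 LPS and 13 for p30 UT and was not listed for p30 LPS. The bin 75 kb upstream, which holds the start of Gm62887 and carried no peak, had 29, 26 and 15 contacts for the same groups and was likewise not listed for p30 LPS. The bin 105 kb upstream, with the start of Rnf212b, had 24, 12 and 13, so that p42 LPS lay below p30 UT there, which was not so at the other 3 partners listed for both. In 2 bins p30 was listed after LPS only. The bin 110 kb upstream, in Rnf212b, had 25 contacts for p42 UT, 20 for p42 LPS and 10 for p30 LPS, and the bin 65 kb upstream, in an intron of Slc7a8, had 19, 18 and 10. At each of these bins the count for p42 UT was above every count for p30.

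Downstream, the bin at 25 kb, which holds the starts of 1700123O20Rik and of Acin1, a gene for a splicing-associated nuclear protein, had 40 contacts for p42 UT and 33 for p42 LPS and was missing for p30. The bins at 15 and 20 kb, which overlap Cirop, held the most contacts of any Cebpe loop, 57 and 56, and were listed for p42 UT alone. They are also the loops closest to the start site and stood at 2.01 and 2.81 times their expected contacts. The bin at 55 kb, in Acin1, was the one downstream partner of p30, with 17 contacts for p30 UT and 28 for p42 UT. The bin at 50 kb, in an exon of Acin1, had 31 contacts and was listed for p42 UT alone. Downstream partners made up 7 of 28 loops for p42 UT, 2 of 15 for p42 LPS, 1 of 5 for p30 UT and 0 of 3 for p30 LPS.

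The remaining partners shared by both p42 lists were the bins 45 kb downstream and 45, 60, 85, 90, 100, 115 and 150 kb upstream, with 14 to 24 contacts before and 11 to 18 after LPS. None of them was listed for p30 as a loop of the start-site bin. The bin 5 kb upstream of it had p30 UT loops to those at 60, 85, 90, 115 and 150 kb upstream. For p30 LPS it had loops to those at 45 and 100 kb upstream. Within 150 kb upstream, 18 of the 28 bins with coverage were partners for p42 UT (64.3%) and 13 of 22 for p42 LPS, against 4 of 21 for p30 UT and 3 of 16 for p30 LPS. The pairs 10 kb to either side of the start-site bin were in no list, and pairs below 10 kb are outside the range of the lists.

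**Figure D2:**
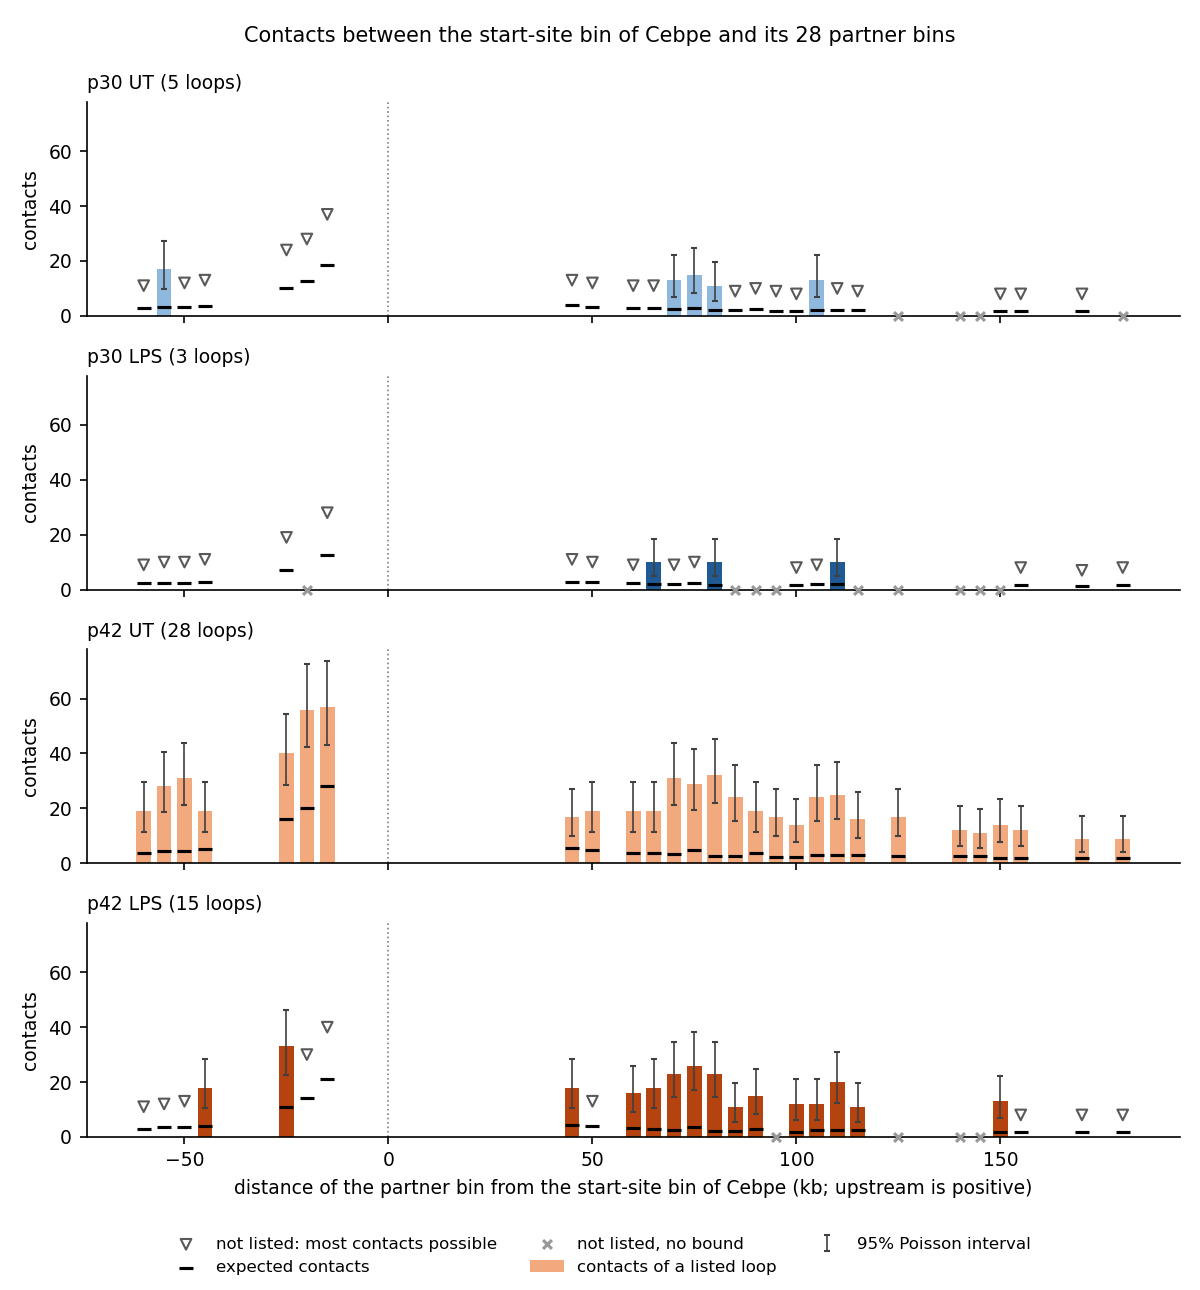
Contacts between the start-site bin of Cebpe and each of its 28 partner bins against distance in kb, 1 panel for each list; coloured bars are contacts of listed loops with 95% exact Poisson intervals (counting error only), black dashes the contacts the caller expected, open triangles the most contacts an unlisted pair could hold, and crosses unlisted pairs without such a bound. The panel for p42 UT has bars at all 28 bins, with a group around 80 kb upstream that recurs for p42 LPS.

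A loop missing from a list may still have contacts that fell short of the caller's threshold. The expected contacts of a pair depended on distance and on the coverage bias of its bins alone, and this relation was recovered from the listed loops to within 8.88e-13 percent at each of 39 distances. The most contacts that a pair could hold without being listed were therefore computed wherever both bins had coverage in that list. These limits, and every fold given as at least a value, assume that the caller tested each such pair and listed all that passed its threshold, which the lists cannot show. In untreated cells 5 of the 28 p42 loops were also listed for p30, 19 were unlisted with such a limit and 4 had none. The p30 limit ranged from 8 to 37 contacts. These pairs were picked by being listed for p42 and not for p30, and p42 had the higher expected contacts, so a p42 count above the limit follows from that choice, and the folds below describe the picked pairs only. Over the listed and limited pairs, p42 UT held 590 contacts and p30 UT at most 320, which is at least 1.84-fold higher, or at least 1.74-fold in scaled contacts, while the expected contacts of the same pairs, without scaling, were 1.45 times as high.

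In LPS-treated cells 3 of the 15 p42 loops were listed for p30, 8 were unlisted with a limit and 4 had none, picked in the same way. Here p42 held 219 contacts and p30 at most 116, at least 1.89-fold higher and at least 1.73-fold in scaled contacts, with expected contacts 1.44 times as high. Over the loops listed for both lines, p42 UT held 144 contacts and p30 UT 69, or 1.97 times in scaled contacts, and after LPS 61 and 30, or 1.86 times. Without scaling these ratios were 2.09 and 2.03, where the expected contacts of the same loops were 1.40 and 1.34 times as high. The ratios of 8.76 and 8.21 above leave out contacts that p30 may hold in unlisted pairs, and with these at their limit the ratios over the pairs that could be bounded were 1.74 and 1.73.

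Single pairs gave limits of different size. At 85 kb upstream p42 UT held 24 contacts against at most 9 for p30 UT, at least 2.52-fold higher in scaled contacts. At 50 kb downstream it held 31 against at most 12, at least 2.44-fold higher, and at 110 kb upstream 25 against at most 10, at least 2.37-fold higher. After LPS the bins at 75 and 70 kb upstream led, with 26 contacts against at most 10 and 23 against at most 9, at least 2.38-fold and 2.34-fold higher. These 5 pairs were the ones whose limit put p42 at 2-fold or more in scaled contacts. At 170 kb upstream the values came closest, with 9 contacts for p42 UT against at most 8.

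Coverage of the start-site bin, the number of HiChIP reads in it, was 12582 for p42 UT and 4543 for p30 UT, and 6268 and 3022 after LPS. Divided by that mean coverage of peak bins, which gives the scaled coverage, it was 4.32 and 1.89 in untreated cells and 3.23 and 1.35 after LPS, and both p42 values were above both p30 values. Among the peak bins present in its list it stood at percentile 98.8 for p42 UT and 97.1 for p42 LPS, and at 84.0 for p30 UT and 65.0 for p30 LPS. The scaled ratio of p42 to p30 was 2.29 in untreated cells (counting interval 2.21 to 2.37), where 169 of 41107 peak bins had a higher ratio and the median was 0.977. After LPS it was 2.40 (2.29 to 2.50), with 70 of 36445 peak bins higher and a median of 1.00. The bin 5 kb downstream, with the cluster of C/EBP core letters shown above, had scaled coverage of 2.93 for p42 UT and 1.26 for p30 UT, a ratio of 2.31, and of 2.10 and 1.05 after LPS, a ratio of 1.99. The bin 5 kb upstream had ratios of 1.37 and 1.27.

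A ratio of at least 2 was found for 2 of 36 peak bins within 150 kb in untreated cells, the start-site bin and the bin 5 kb downstream, where 0.898% of all peak bins reached it. After LPS it was found for the start-site bin alone of 31 peak bins, where 0.648% of all reached it. With coverage taken per 1000000 contacts of the fit, the LPS ratio of that bin was 1.90 and did not reach 2. The median ratio over the bins of the window was 1.10 and 1.14. The 10 partner bins from 70 to 115 kb upstream, which held most of the upstream contacts, had scaled coverage of 0.397 to 1.01 in the lists that gave a value, and their median ratio of p42 to p30 was 1.16 in untreated cells and, over the 6 with a value for both lines, 1.38 after LPS. Coverage of the start-site bin thus differed between the lines together with the number of its listed loops, and its part in that number was not tested.

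**Figure D3:**
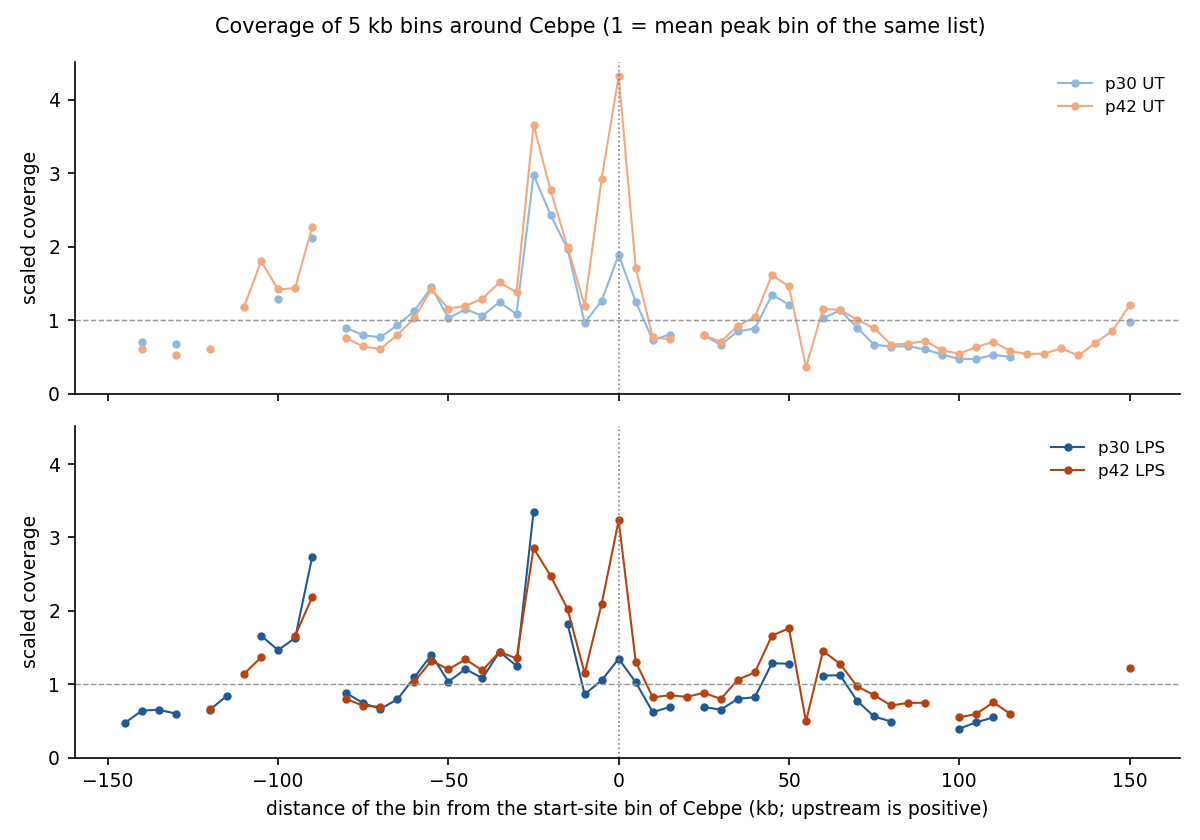
Scaled coverage of the 5 kb bins within 150 kb of the start-site bin of Cebpe against distance in kb, untreated above and LPS below; each point is 1 bin of 1 list, a value of 1 (dashed) is the caller's mean over peak bins for that list, and bins without a listed loop have no point. The line of p42 rises to 4.32 (UT) and 3.23 (LPS) at the start-site bin, where that of p30 has 1.89 and 1.35.

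Letters in the 28 partner bins were set beside those in all peak bins, although 8 of the 28 carried no peak. TTGCATCA was found in 5 of 28 (17.9%) and in 11.6% of all peak bins. It lay in the bins 20 kb downstream and 50, 80, 85 and 110 kb upstream, and the windows of the bins at 85 and 110 kb, which were partners in both p42 lists, are shown with the match in capitals.

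85 kb upstream, chr14:55032404-55032471: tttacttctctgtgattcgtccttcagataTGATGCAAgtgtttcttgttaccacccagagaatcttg

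110 kb upstream, chr14:55055935-55056002: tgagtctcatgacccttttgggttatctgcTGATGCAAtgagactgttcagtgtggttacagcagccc

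The C/EBP core TTGCNNAA was in 26 of 28 partner bins (92.9%) and in 85.8% of peak bins, and the AP-1 letters TGANTCA likewise in 26 partner bins (92.9%) and in 77.4% of peak bins. GAGGAAGT, which PU.1 binds, was in 7 of 28 (25%) and in 29.9%. The matches to these 5 motifs can overlap, since TTGCGCAA is one form of TTGCNNAA.

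Both lines had fewer promoter loops of Cebpe after LPS. The number went from 28 to 15 in p42 and from 5 to 3 in p30, which are 0.536 and 0.6 of the untreated number, and the scaled contacts went from 33.6 to 16.99 and from 3.84 to 2.07. Scaled coverage of the start-site bin was 1.34 times as high in untreated as in LPS-treated p42 cells and 1.40 times in p30, where this ratio had medians of 0.996 and 1.02 over all peak bins. In lists of equal size p42 had 19 loops before and 15 after LPS, and p30 had 5 and 1. At the 15 partners common to both p42 lists the contacts were 342 in UT and 269 in LPS, a ratio of 1.27, or 1.06 in scaled contacts, and the expected contacts also had a ratio of 1.27. At the 1 partner common to both p30 lists they were 11 and 10, a ratio of 0.887 in scaled contacts, so the lower scaled contacts after LPS did not hold at that loop. With unlisted pairs at their limit, untreated over LPS was at least 1.18 in p42 and at least 1.16 in p30 in scaled contacts, over pairs picked by being listed in untreated cells. The other 13 partners were listed for p42 before LPS and not after it.

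The window of 150 kb to either side of the start-site bin held other loops, in which neither bin was the start-site bin. They numbered 138 for p42 UT and 64 for p30 UT, a ratio of 2.16, and 81 and 62 after LPS, a ratio of 1.31. In lists of equal size they numbered 82 and 63 in untreated cells and 81 and 53 after LPS. The ratios of the promoter loops of Cebpe were higher in both treatments, at 5.6 and 5 as deposited. The promoter loops made up 16.9% of all loops of the window and the promoter for p42 UT and 15.6% for p42 LPS, against 7.25% for p30 UT and 4.62% for p30 LPS.

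Of the 61 bins of the window the start-site bin had the most loops in both p42 lists. For p30 UT 5 bins had more loops than it and for p30 LPS 15 bins, and the bin 5 kb upstream led with 12 and 9 loops. In p42 that bin had 26 loops before and 14 after LPS. The bin 5 kb downstream had 19 and 12 loops for p42 and 8 and 7 for p30, before and after LPS. Over the start-site bin and both its neighbours 72 loops were listed for p42 UT and 25 for p30 UT, a ratio of 2.88, and 41 and 19 after LPS, a ratio of 2.16. These ratios were smaller than the 5.6 and 5 of the start-site bin alone. Among the other loops, 67 for p42 UT and 32 for p30 UT had both bins upstream, 57 and 26 had both downstream, and 14 and 6 spanned the start-site bin. After LPS 44 for p42 and 29 for p30 had both bins upstream and 6 and 2 spanned the start-site bin, while 31 in each line had both bins downstream.

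**Figure D4:**
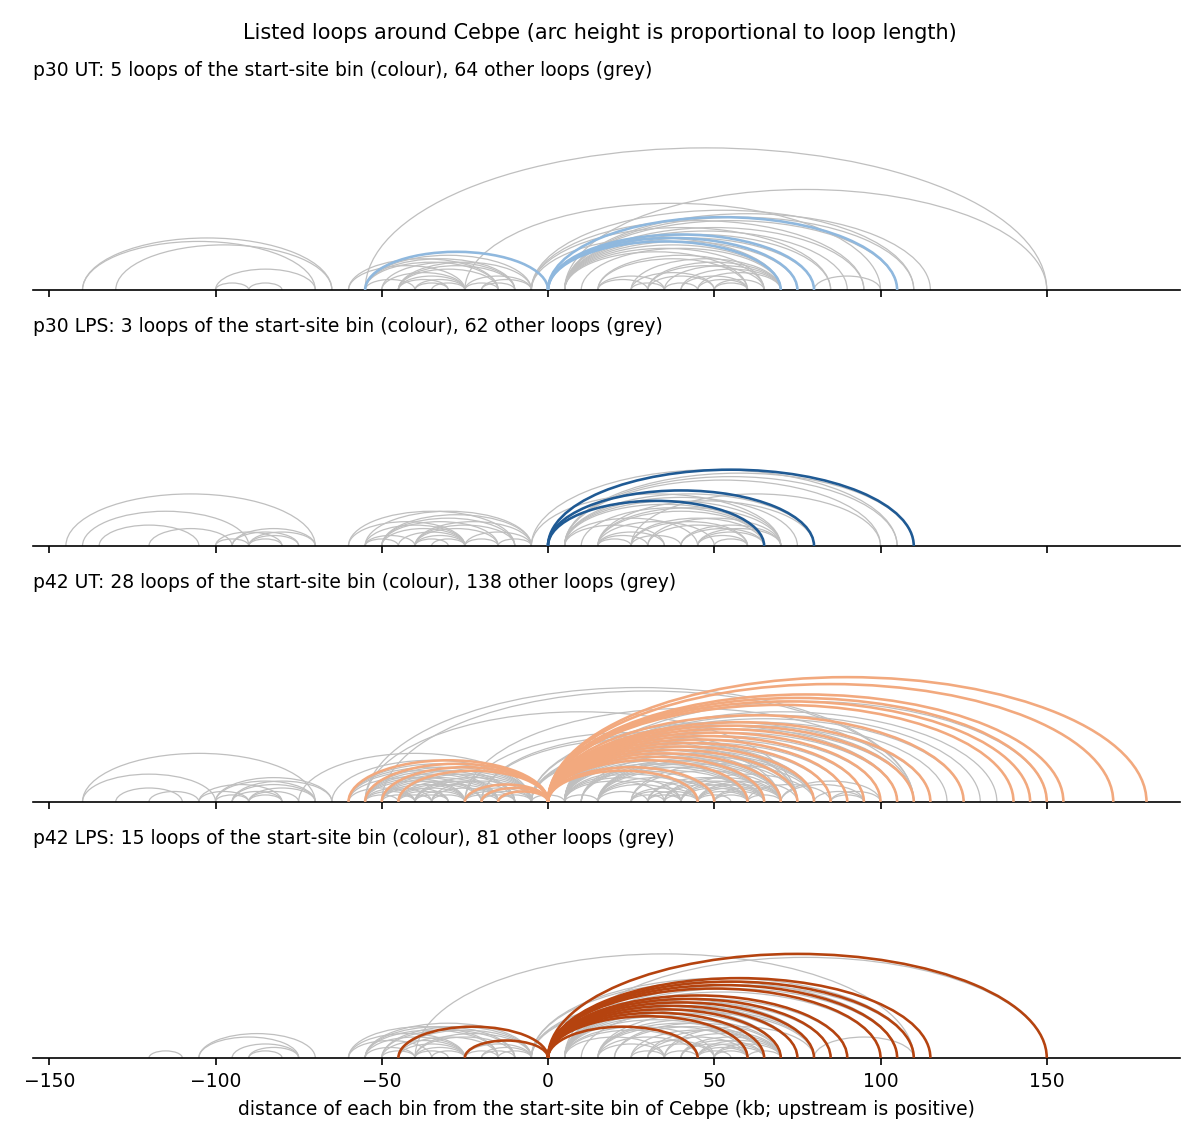
Loops with both bins within 150 kb of the start-site bin of Cebpe (grey) and all loops of the start-site bin (colour), drawn as arcs against distance in kb for each list. The start-site bin is the foot of 28 arcs for p42 UT and 15 for p42 LPS but of 5 and 3 for p30, whereas grey arcs stand on both sides of it in all 4 panels.

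The window holds the start sites of 10 other protein-coding genes, of which 9 had a promoter loop in any list. None of the 10 had at least 2 times the loops in p42 under both treatments, where 5.55% of all genes with loops did. Slc7a8 had 14 promoter loops for p42 UT and 9 for p30 UT, and 11 and 6 after LPS. Acin1 and 1700123O20Rik start in the same bin and therefore share their loops, 12 and 8 in untreated cells and 9 and 8 after LPS. Cirop had 6 and 4 loops and then 4 and 3, Rnf212b 3 and 2 in both treatments, and Cdh24, a cadherin gene, 4 and 4 and then 1 and 4. Psmb5, a proteasome subunit gene, had 5 and 2 loops in untreated cells and 2 and 5 after LPS, while Psmb11, the thymic form of that subunit, had none. Ajuba, a gene of a LIM domain protein, had 2 and 2 and then 0 and 1, and 4931414P19Rik 3 and 0 and then 3 and 2. As deposited, the lines differed by at most 5 loops at any of these genes in either treatment. In lists of equal size the untreated numbers of p42 and p30 were the same for Slc7a8 (9), Acin1 and 1700123O20Rik (8), Cirop (3), Rnf212b (2) and 4931414P19Rik (0), and Psmb5, with 4 and 2, was the neighbour with more in p42. After LPS Slc7a8 had 11 and 5 there.

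All 6 other genes of the C/EBP family examined had promoter loops, and 1 of the 6, Cebpg, had at least 2 times the loops in p42 under both treatments, again beside 5.55% of all genes with loops. Cebpg, a family member without a transactivation domain of its own, had 12 loops for p42 UT and 4 for p30 UT, and 3 and 1 after LPS. In lists of equal size it had 6 and 4 and then 3 and 1, under the fold, so none of these 6 genes passed there. Cebpa, the gene of the endogenous factor, had 11 and 10 loops in untreated cells and 5 in both lines after LPS. Cebpb, which acts in emergency granulopoiesis and in macrophages, had 33 and 13 in untreated cells, and Cebpd, an acute-phase member, 20 and 5. After LPS both had equal numbers in p42 and p30, 21 for Cebpb and 7 for Cebpd. Ddit3, the stress-response member also known as CHOP, had 16 and 13 and then 6 and 12, with the untreated direction turned to 12 and 13 at equal size, and Cebpz, which shares the family name but not its leucine zipper, had 3 loops for p42 UT alone. In untreated cells all 6 had more loops in p42, as had 79% of all genes with loops, and their median difference was 5.5 beside 2 over all genes. The genes compared were not matched for their number of loops, and the 6 held 45 for p30 UT in all. After LPS 1 had more, 1 fewer and 4 equal numbers, where 20.5% of all genes had more, and the median was 0 beside -1 over all genes. With the lists cut to equal size p42 had the higher number at 4 of the 6, the lower at 1 and the same at 1 under either treatment, where 3732 of all 10513 genes had more in untreated cells and 2972 after LPS.

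Of 12 regulators of granulocyte development 9 had promoter loops and 1 of them, Gfi1, passed the same fold. Gfi1, a repressor needed for neutrophil differentiation, had 6 loops for p42 UT and 1 for p30 UT, and 2 and 0 after LPS. In lists of equal size its untreated counts were 0 for p42 and 1 for p30, so that the direction turned and the fold was not passed. Spi1, which encodes PU.1, had 11 and 6 and then 10 and 7. Runx1, a transcription factor of blood stem cells, had 23 and 7 and then 10 and 11, and Csf3r, the G-CSF receptor gene, 8 and 5 and then 3 and 5, with the untreated numbers at 3 and 5 in lists of equal size, also turned. Irf8, Klf5 and Ets1 were without a promoter loop. In untreated cells 8 of these 9 genes had a higher number in p42 and 1 an equal number, beside 79% of all genes with a higher number. After LPS 5 had a higher and 4 a lower number, beside 20.5% of all genes with a higher one. At equal size 6 had a higher and 3 a lower number in untreated cells, and 5 a higher and 3 a lower number after LPS. Of all 10513 genes with loops, 3732 had a higher and 3370 a lower number there in untreated cells. After LPS these were 2972 and 4124.

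In the lists of granule genes, 4 of 6 on the primary list and 7 of 15 on the secondary granule or late neutrophil list had a promoter loop. On each list 1 gene passed the fold, Ms4a3 on the primary and Camp on the secondary list. The granule protein genes Mpo, Elane and Prtn3 of the primary list had loops and did not pass. Ms4a3, a gene of granulocyte-monocyte progenitors, had 6 loops for p42 UT, 3 for p42 LPS and 0 for p30. The myeloperoxidase gene Mpo had 12 for p42 UT and 6 for p30 UT, and 9 and 8 after LPS. The neighbouring protease genes Elane and Prtn3 had 16 and 9 and 27 and 17 in untreated cells, and 13 and 13 and 15 and 18 after LPS. Camp, the cathelicidin gene of secondary granules, had 1 loop for p42 UT, 2 for p42 LPS and 0 for p30. Ltf, which encodes lactoferrin, had 9 and 0 in untreated cells and 3 in both lines after LPS, and Ngp had 8 and 3 and then 2 and 7. Mmp9, the gelatinase gene, had 3 and 2 and then 3 and 1, and Lcn2, which encodes lipocalin-2, 1 and 0 and then 0 and 2. S100a8, S100a9, Cybb, Chil3, Cd177, Itgb2l, Mmp8 and Ly6g were without a promoter loop. Over the 4 gene lists 4 of the 26 genes with a loop passed the fold, beside 5.55% of all genes, and 2 passed it in lists of equal size, beside 3.24% of all genes. Ms4a3 was the 1 gene that passed in both. Cebpg, Gfi1 and Camp no longer passed, Camp with 0 loops in either line in untreated cells, and Ltf entered with 3 and 0 before LPS and 3 and 1 after it.

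**Figure D5:**
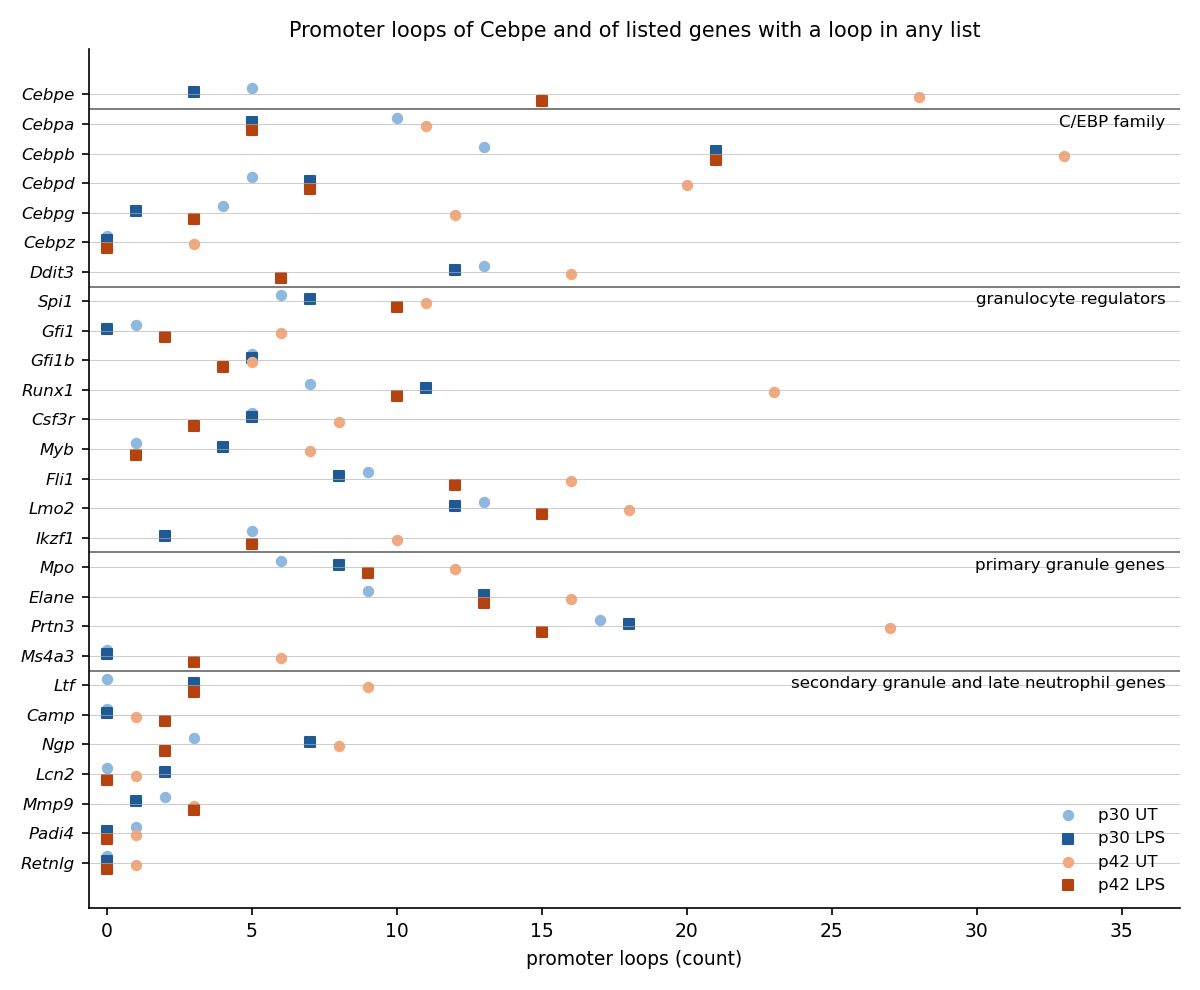
Promoter loops (count, horizontal axis) of Cebpe and of each gene of the C/EBP family and granulocyte lists that had a loop in any of the 4 deposited lists; circles are untreated and squares LPS, blue p30 and orange p42. Cebpe has 28 and 15 loops in p42 and 5 and 3 in p30, whereas for Cebpa, Cebpb and Cebpd the LPS squares of both lines stand at the same count.

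The genes whose numbers of loops were most like those of Cebpe were found by Euclidean distance of log2(loops + 1) over the 4 lists, outside 1 Mb of it. Lrrc8d, a volume-regulated anion channel gene, was nearest at 0.79, with 22 loops for p42 UT, 11 for p42 LPS and 5 in each list of p30. Slc23a3, a solute carrier gene, had 17 and 12 loops for p42 and 4 in each list of p30, at 0.86. Runx2, a RUNX transcription factor gene, had 17 and 11 for p42 and 7 and 3 for p30, at 0.90. The chemokine receptor gene Cxcr4 had 23 and 9 for p42 and 8 and 4 for p30, at 0.99, and the hexokinase gene Hk2 had 22 and 11 and then 9 and 5, at 1.08. All 5 had fewer promoter loops in p42 than Cebpe in both treatments.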

How the data were processed

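H3K27ac HiChIP libraries were mapped by the authors to mm39 (the UCSC name of GRCm39) with BWA 0.7.17, valid pairs were kept and deduplicated with pairtools, and loops were called with FitHiChIP at 5 kb. Each deposited list pools the 2 replicates of a group and holds, at a q-value below 0.01, contact counts, the coverage signal and peak flag of both bins, coverage biases given as a ratio, the expected count, the contact probability given as a fraction, and the deposited q-value. Peaks flagged in the lists were the same in all 4. Replicate labels, depth per library and reads of single libraries were not analysed here.

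Start sites were those of canonical GENCODE mouse release 39 transcripts. Contacts were scaled by the contacts of each list's fit (expected count over contact probability), and coverage by the mean of peak bins. With 1 list per group no test was run, and intervals are exact Poisson at 95%. Ligation reads without molecular identifiers are not independent molecules. A fold of at least 2 on loops plus 1 in both treatments was the call for genes. Partner bins named were those of both p42 lists, of a p30 list, or the 5 with most contacts. Genes named were Cebpe, genes starting within 150 kb, 4 gene lists and the 5 genes most like Cebpe in loop numbers. Members, lists and settings were chosen with earlier results of these data known. Alternatives were stricter q-values, lists of equal size, a minimum of 10 contacts, 1 bin of slack, windows of 100 and 200 kb, a fold of 1.5 and other scalings. Limits on unlisted pairs and a distance of at least 20 kb were added after seeing the data. The promoter sequence of Cebpe is not shown, and other sequences were read from GRCm39. Counting and limits were tested on simulated data. Python 3.11.15, numpy 2.4.6, pandas 2.3.3 and scipy 1.17.1 were used.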

Additional observations from a re-analysis of the deposited data

Results flagged for a closer look

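In the loops of the window other than those of the Cebpe promoter, scaled contacts moved in opposite directions with LPS in the p30 and p42 lines. These contacts, scaled to 1000000 contacts of the caller's fit, went from 96.0 to 109 in p30 and from 245 to 143 in p42, which are log2 changes of 0.18 and -0.77 and differ by -0.96. Without scaling they went from 1725 to 1579 in p30 and from 4651 to 2266 in p42, lower after LPS in both. The number of these loops went from 64 to 62 and from 138 to 81, and in lists of equal size from 63 to 53 and from 82 to 81. With 1 list per group the difference was not tested, and the lengths of the lists differ in the same way, from 80489 to 94609 loops in p30 and from 158233 to 78591 in p42.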

How the results depend on the processing

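No paired analysis was possible because each deposited list pools both replicates of its group, and for the same reason no replicate could be left out. Among the 75 alternatives computed for the ratios and counts here, direction was kept except in 1. Outside them Gfi1, Ddit3 and Csf3r in UT turned in lists of equal size, and the LPS change of p30 contacts in other loops turned without scaling. The LPS change of scaled Cebpe contacts also turned at the 1 loop shared by both p30 lists and, relative to expected contacts, in p42. Relative to expected contacts, the p42 over p30 ratio of Cebpe contacts was 0.823 in UT, below 1, and 1.03 in LPS, over loops that differ between the lists. The ratios of promoter loops (5.6 in UT, 5 in LPS) became 2.88 and 2.16 with 1 bin of slack, and in LPS 12 at q below 0.001 and 15 in lists of equal size. LPS over UT in p30 (0.6) became 0.25 at q below 0.001 and 0.2 at equal size, and in p42 (0.536) it was 0.294 at q below 1e-05. At that q no p30 loop remained, so no ratio to p30 was available, with 17 p42 loops in UT and 5 in LPS. The ratios of scaled contacts (8.76 and 8.21) became 3.98 and 2.43 with slack, 6.50 and 24.6 at equal size, 1.97 and 1.86 over shared loops, and 1.74 and 1.73 with unlisted pairs at their limit. In LPS they were 21.5 at q below 0.001. Other loops (2.16 in UT) gave 3.6 at q below 1e-05 and 1.30 at equal size. Coverage ratios (2.29 and 2.40) were 2.77 and 2.07 without scaling and 2.62 and 1.90 per 1000000 contacts. Neighbouring genes past the fold (0) became 1 at q below 0.001, at q below 1e-05 and at a fold of 1.5, and granulocyte and C/EBP genes (4) became 1 at both stricter q-values and 2 at equal size, of which 1, Ms4a3, was among the 4 and 1, Ltf, was not. The share of all genes was available only as deposited (5.55%) and at equal size (3.24%), so the other counts have no background. In all, 45 of the 75 alternatives stayed near the main value. Near means inside its counting interval where an interval was computed, and otherwise within 1.5-fold. Low contact counts, 10 per loop in p30 LPS, limit the p30 values of loops and contacts.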
